A study of Mus musculus with 15 samples.

Results

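The genes described here are 9 loci of T cell surface and homing receptors and their regulators in EL4 cells: the pan-T surface genes Thy1, Cd2, Cd5 and Cd6, the homing genes Ccr7, Klf2, S1pr1 and Ccr9, and Cd44, an adhesion receptor that was kept outside both classes. The members were chosen by name, out of 21631 protein-coding and 49554 annotated genes of the RefSeq table for the mouse build GRCm38.p6. For every member, the called intervals of 12 lists were collected over the annotated span of the gene plus 10 kb on each side. EL4 is a murine T lymphoma line, labelled as strain C57BL/6N and obtained from ATCC (TIB-39), so that all values come from 1 cell line in standard culture, with no treatment and no second cell type. The study set out to relate the chromatin state of modified histones to their turnover, and to that end 5 marks of histone H3 were mapped by chromatin immunoprecipitation followed by sequencing (ChIP-seq), each with its antibody on formaldehyde-fixed cells, and open chromatin by the assay for transposase-accessible chromatin (ATAC-seq). Each of these 6 assays had 2 replicates, which the study describes as technical. The lists hold positions only, without read counts or peak heights. The number of reads behind an interval is thus unknown, a missing interval says only that the peak caller returned none, and no test between genes was made.

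Thy1, Cd2, Cd5 and Cd6 encode glycoproteins that T cells carry from the thymus onward and that serve in adhesion or set the strength of signals from the T cell receptor. The homing genes act in another step: CCR7 and CCR9 are chemokine receptors that guide T cells into lymph nodes and into the thymus and gut, S1PR1 senses the lipid that draws cells out of lymphoid organs, and KLF2 is a transcription factor of resting T cells known to turn on S1pr1. Among the marks, trimethylation of lysine 4 (H3K4me3) is typical of the starts of active genes, acetylation of lysines 9 and 27 (H3K9ac, H3K27ac) of active starts and enhancers, dimethylation of lysine 36 (H3K36me2) of wide stretches of gene bodies and the space between genes, and trimethylation of lysine 27 (H3K27me3) of genes silenced by Polycomb.

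Of the 9 members, Thy1 and Ccr9 carried the widest blocks of the active marks, Cd6 lay under H3K36me2 without any H3K4me3, and S1pr1 held no interval in any of the 12 lists. No member window held H3K27me3, which 24.3% of protein-coding gene windows held in both replicates. The clearest difference between both classes was in H3K36me2, which covered most of the windows of Thy1, Cd5 and Cd6 and 35.4% or less of those of Klf2, Ccr9 and S1pr1. Cd2 (56.5 and 44.9%) and Ccr7 (74.5 and 42.7%) lay between them, with Ccr7 above Cd2 in replicate 1.

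As a check of the cell label, the T cell genes Cd3d, Cd3e, Cd3g, Lck, Zap70 and Bcl11b were examined within 2 kb of either gene end. All 6 had H3K4me3 there in both replicates, as did 1 of 6 B cell genes (Cd79a) and 1 of 6 myeloid genes (Lyz2), where 46.3% of all protein-coding genes did. Within 2 kb of their annotated starts, neither Cd79a nor Lyz2 had it. In the windows with 10 kb flanks, 6 of 6 T cell, 3 of 6 B cell and 3 of 6 myeloid genes had H3K4me3 in both replicates (57.7% of protein-coding genes). The libraries held 17519 to 46015 intervals, from 8.49 Mb in ATAC-seq replicate 1 to 305 Mb in H3K36me2 replicate 1, and no library stood apart from its partner by more than 1.5 times in either value.

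RefSeq start sites were at hand for Cd5, Cd44, Klf2 and Ccr9. The 250 bases before these starts are shown because intervals of H3K4me3 and of both acetylations lay on each of them in both replicates, while ATAC-seq and H3K36me2 separated them. They are given 5′ to 3′ on the strand of the gene, from RefSeq on GRCm38.p6, with CpG dinucleotides in capitals. The positions are chr19:10738975-10739224 for Cd5 and chr2:102901666-102901915 for Cd44, both on the minus strand, and chr8:72318812-72319061 for Klf2 and chr9:123766961-123767210 for Ccr9, both on the plus strand.
Cd5: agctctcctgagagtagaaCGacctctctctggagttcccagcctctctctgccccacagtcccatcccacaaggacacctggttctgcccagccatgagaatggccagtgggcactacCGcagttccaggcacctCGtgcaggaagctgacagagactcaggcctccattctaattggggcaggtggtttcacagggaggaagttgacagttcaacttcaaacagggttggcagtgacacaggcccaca
Cd44: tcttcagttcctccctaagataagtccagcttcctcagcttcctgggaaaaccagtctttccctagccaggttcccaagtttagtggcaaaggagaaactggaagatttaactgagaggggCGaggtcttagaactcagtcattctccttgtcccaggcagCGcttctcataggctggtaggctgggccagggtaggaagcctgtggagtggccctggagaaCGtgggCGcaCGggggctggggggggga
Klf2: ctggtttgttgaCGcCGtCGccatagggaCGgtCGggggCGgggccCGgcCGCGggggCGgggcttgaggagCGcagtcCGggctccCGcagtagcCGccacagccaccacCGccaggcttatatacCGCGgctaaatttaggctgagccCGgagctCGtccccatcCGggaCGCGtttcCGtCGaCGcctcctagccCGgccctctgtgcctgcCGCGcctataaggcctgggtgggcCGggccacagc
Ccr9: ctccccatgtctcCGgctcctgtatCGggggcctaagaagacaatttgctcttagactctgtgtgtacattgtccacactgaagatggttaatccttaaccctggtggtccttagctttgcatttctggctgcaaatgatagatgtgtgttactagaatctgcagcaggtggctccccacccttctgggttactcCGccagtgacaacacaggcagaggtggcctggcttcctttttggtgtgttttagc

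The Klf2 sequence held 29 CpG dinucleotides at 71.2% G and C, more than 93.2% of the 32851 promoters of the table, whose median was 6. The other 3 lay below this median, with 5 for Cd44 (more than 44.4% of promoters) and 3 each for Cd5 and Ccr9 (more than 29.0%). Short motifs of known factors were looked up on both strands in windows of this length. The GC box GGGCGG occurred 2 times in the Klf2 window and in 32.7% of all promoters. The Cd5 window held 1 CCAAT box (CCAAT, 33.8% of promoters) and 1 copy of the ETS motif GGAAGT (19.7%), and CCAAT and GGAAGT did not overlap there. Neither the TATA box letters TATAAA (12.4% of promoters) nor the RUNX letters TGTGGT (14.0%) were found in any of the 4 windows. Only these exact letters were searched on both strands, so variant forms of a motif were not counted. These are matches of letters only, and binding was not measured.

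Thy1, a small glycoprotein tethered to the membrane by a lipid anchor that marks mouse T cells, lies on chromosome 9 (44043384 to 44048579). In replicate 1 an H3K4me3 interval of 4810 bp ran from 44042784 to 44047593, and in replicate 2 one of 4761 bp from 44042815 to 44047575. Over the whole library, 98.8% of the H3K4me3 intervals were narrower in either replicate. Acetylation followed the same block, with H3K27ac over 89.7 and 92.1% of the gene span and H3K9ac over 78.0 and 80.1%. An ATAC-seq interval of 448 bp in replicate 1 and 380 bp in replicate 2 crossed the lower-coordinate end of the gene. A second accessible site, from 44033996 to 44034195 in replicate 1 and from 44033998 to 44034352 in replicate 2, lay near the far edge of the window and also touched H3K4me3, H3K9ac and H3K27ac in both. It falls within the span of the lncRNA gene Gm39323 (44010450 to 44042184), so that it cannot be assigned to Thy1 by position.

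H3K36me2 covered the entire Thy1 window in replicate 1, in 1 interval of 32599 bp, and 96.0% of it in replicate 2. The replicate 2 list left a gap between 44043199 and 44044201, at the lower end of the gene. Of the H3K4me3 base pairs of Thy1, 100% lay under H3K36me2 in replicate 1 and 83.1% in replicate 2. Over all H3K4me3 intervals of the genome the shares were 24.9 and 21.0%. With the window almost wholly under H3K36me2, a high share at Thy1 follows from that coverage and does not show a particular link of these marks.

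Cd2 encodes an adhesion receptor of the immunoglobulin family that binds CD48 in the mouse, and lies on chromosome 3 (101275908 to 101287939). Its H3K4me3 was restricted to the higher-coordinate part of the gene, from 101285956 to 101287860 in replicate 1 and in 2 pieces between 101285960 and 101287893 in replicate 2. H3K9ac and an H3K27ac interval sat on the same part. Accessibility was at the opposite end. The sole ATAC-seq interval, of 439 and 508 bp, lay outside the lower-coordinate end (101274748 to 101275186 in replicate 1, 101274694 to 101275201 in replicate 2). It touched H3K27ac and H3K36me2 in both replicates, but neither H3K4me3 nor H3K9ac. H3K27ac covered that element from 101273811 to 101276227 in replicate 1, in a single interval of 2417 bp, and in 2 intervals in replicate 2. Cd2 was also the member nearest to H3K27me3, at 23.1 kb in replicate 1 and 12.5 kb in replicate 2.

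Cd5 and Cd6, paralogous scavenger-receptor genes, are neighbours on chromosome 19, with the lncRNA gene A430093F15Rik (10740947 to 10786043) between them. CD5 dampens signals of the T cell receptor, and CD6 binds the adhesion molecule ALCAM. At the start of Cd5 (10738974, minus strand) H3K4me3 ran over 2000 bp in replicate 1 and 2083 bp in replicate 2, with an ATAC-seq interval of 263 and 296 bp on the start itself. A second H3K4me3 block began 928 bp upstream of the start in replicate 1 and, in 2 pieces, 987 bp upstream in replicate 2. It reached into A430093F15Rik, to 10743155 and 10743466. H3K27ac spanned both blocks, in intervals of 2075 and 4077 bp in replicate 1 and of 2105 and 4109 bp in replicate 2. Both genes share this stretch, and their signals cannot be told apart by position.

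Accessibility at Cd5 differed between the replicate lists. Replicate 1 had 2 ATAC-seq intervals in the window and replicate 2 had 5, which covered 1.18 and 3.58% of it. The 3 sites seen in replicate 2 alone lay on H3K27ac, 2 of them from 10709375 to 10710270, within the neighbouring gene Vps37c (10688735 to 10714628). H3K36me2 likewise covered 98.0% of the Cd5 window in replicate 1 and 73.5% in replicate 2, where it ended at 10740199.

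At Cd6 (10789339 to 10830062) the picture was different from Cd5. No H3K4me3 interval lay in its window in either replicate, and within the gene span neither acetylation nor ATAC-seq was called. The nearest H3K4me3 interval lay just outside the window, 11.7 kb from the gene in either replicate. An H3K27ac interval of 2503 bp in replicate 1 and 2617 bp in replicate 2 ended shortly before the lower-coordinate end, at 10788985 and 10789021. A small H3K9ac interval lay within it, of 418 and 390 bp. The only ATAC-seq interval was in replicate 2, at 228 bp, and touched H3K36me2 but none of the 3 active marks. It lies within the lncRNA gene A430093F15Rik and cannot be assigned to Cd6 by position. H3K36me2 covered 82.3 and 97.5% of the Cd6 span, the larger part of it in intervals of 24399 to 35599 bp. Cd6 was the pan-T gene with the least of every active mark in both replicates.

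Cd44, the receptor for hyaluronan that rises on activated and memory T cells, is the longest member, with 90.5 kb on chromosome 2 (102811141 to 102901669). Its start (102901665, minus strand) bore an H3K4me3 interval of 2641 bp in replicate 1 and 2521 bp in replicate 2, along with H3K27ac of 1474 and 1458 bp. A second group of intervals lay inside the gene, where H3K4me3 was called in 3 pieces from 102864064 to 102868552 in replicate 1 and from 102863942 to 102868493 in replicate 2. The widest H3K27ac interval there was 2377 and 3218 bp. Both places had an ATAC-seq interval in replicate 2, of 397 bp at the start and 523 bp inside the gene. Replicate 1 had none. H3K36me2 was cut into 11 intervals in each replicate, over 56.1 and 64.6% of the window. Near the start it ended at a distance of 866 bp in replicate 1 and 1866 bp in replicate 2.

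**Figure D1:**
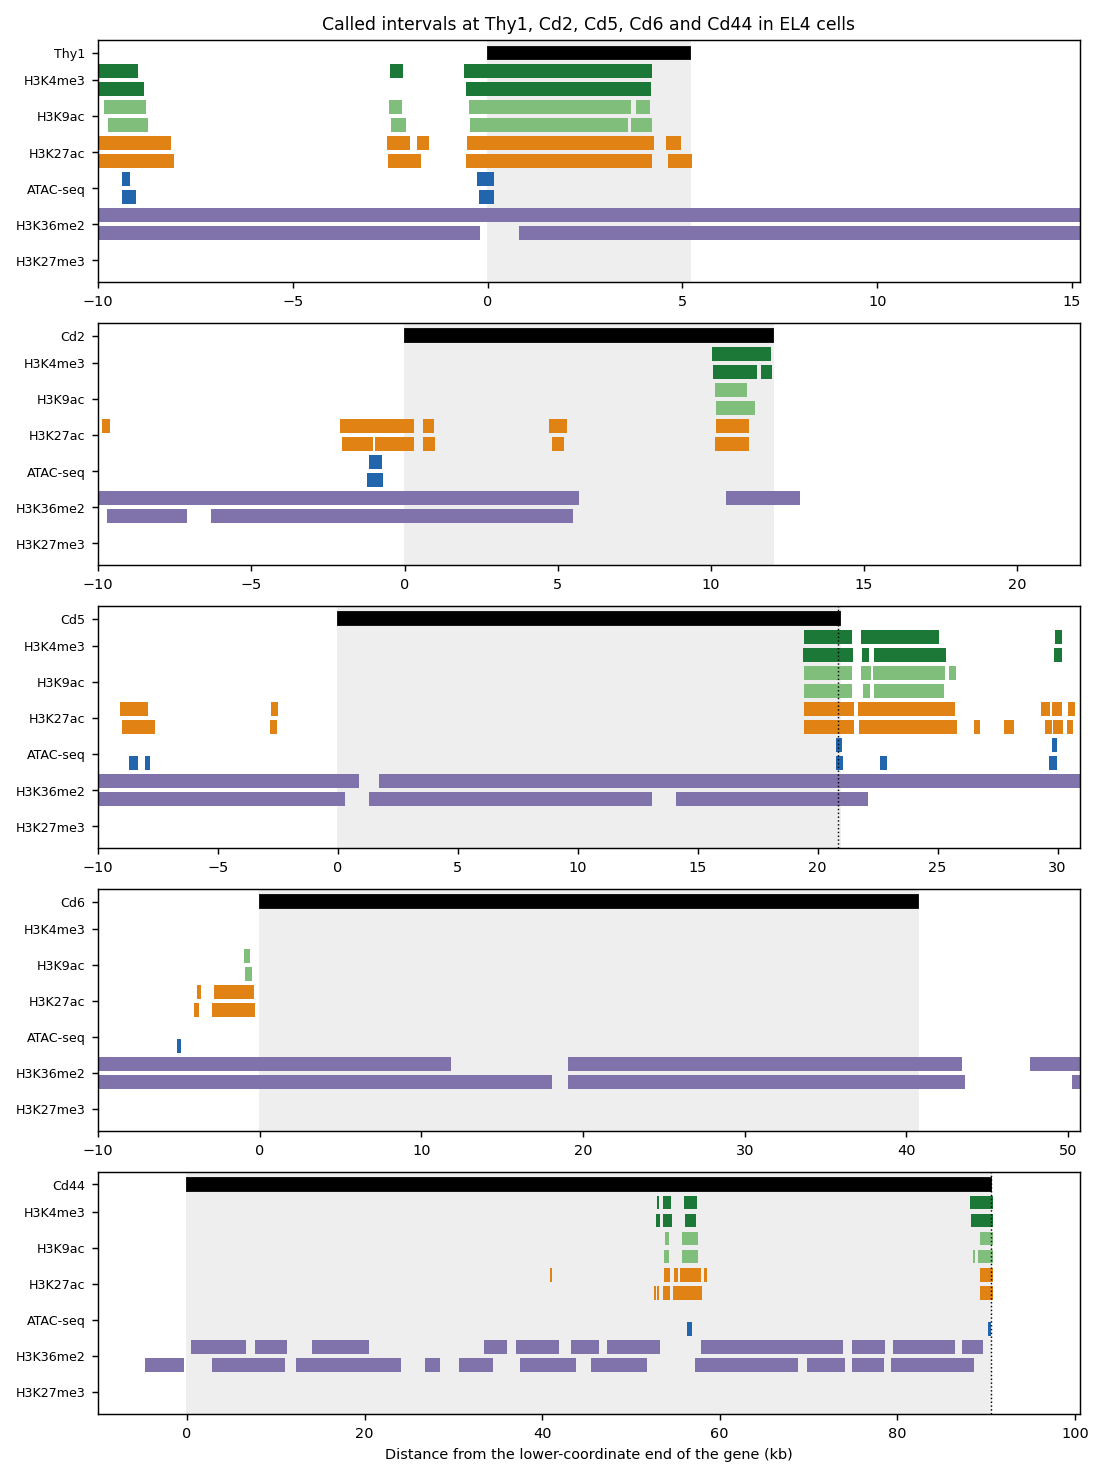
Called intervals at Thy1, Cd2, Cd5, Cd6 and Cd44. The x axis is the distance from the lower-coordinate end of the gene in kb and differs in length between panels. Each assay has 2 rows, replicate 1 above replicate 2. The black bar and grey band mark the gene span and the dotted line an annotated start. H3K4me3 (dark green), H3K9ac (light green) and H3K27ac (orange) lie over most of Thy1 with ATAC-seq (blue) at its lower end, Cd2 has H3K4me3 near its higher end and ATAC-seq outside its lower end, H3K4me3 is missing at Cd6, H3K36me2 (purple) is wide at all 5 genes, and the H3K27me3 rows are empty.

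Ccr7, whose receptor follows CCL19 and CCL21 into lymph nodes, lies on chromosome 11 (99144199 to 99155077). Its higher-coordinate end bore H3K4me3 of 940 bp in replicate 1 and 850 bp in replicate 2. H3K9ac (576 and 619 bp), H3K27ac (630 and 657 bp) and ATAC-seq (240 and 318 bp) lay on the same spot. All of these intervals were narrower than the median of their library, 1345 and 1359 bp for H3K4me3. A second place lay outside the opposite end (99136608 to 99137024 for H3K4me3 in replicate 1), with H3K4me3 of 417 and 214 bp and H3K27ac of 608 and 619 bp but no ATAC-seq. Farther out on that side, wider H3K27ac crossed the edge of the window. In replicate 1 it was a single interval of 2696 bp, wider than 93.9% of its library. In replicate 2 it was called in pieces of 1573 and 1126 bp. H3K27ac inside the gene was called in 3 pieces in replicate 1 and in 1 piece of 882 bp in replicate 2. H3K36me2 was the least repeatable value at Ccr7. It covered 74.5% of the window in replicate 1 and 42.7% in replicate 2, because an interval of 10399 bp over the higher-coordinate end was listed in replicate 1 only.

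Klf2 is the shortest member (2.59 kb on chromosome 8, 72319062 to 72321654), with its start in the CpG-rich sequence above. A single H3K4me3 interval of 1085 bp in replicate 1 (72318531 to 72319615) and of 1024 bp in replicate 2 (72318535 to 72319558) sat across the start. ATAC-seq intervals of 566 and 575 bp covered the start as well, wider than 70.9 and 69.1% of their libraries. Of the 9 loci, Klf2 had the closest match of its replicates in ATAC-seq, with 98.4% of the covered base pairs called in both. H3K36me2 kept away from the start and the gene. It was called in 1 upstream interval that ended 1663 bp before the start in replicate 1 and 4063 bp before it in replicate 2, and neither gene span nor any base of the active marks lay under it.

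Ccr9, the receptor for CCL25 that is carried by thymocytes and gut-homing T cells, had the widest acetylated region of all members on chromosome 9 (123767211 to 123783457). An H3K4me3 interval of 6624 bp in replicate 1 (123765906 to 123772529) and of 6312 bp in replicate 2 (123766236 to 123772547) covered the start and was wider than 99.7% of the intervals of its library. H3K9ac intervals of 5958 and 5965 bp and H3K27ac intervals of 5960 and 5980 bp lay on the same bases. In addition, H3K27ac continued upstream with little interruption from 123754821 in replicate 1 and 123754868 in replicate 2, and covered 42.6 and 44.1% of the window. By this share Ccr9 ranked above 99.9% of the protein-coding genes in both replicates. The lncRNA gene Gm17021 (123764707 to 123773407) overlaps the start of Ccr9, and its marks cannot be told apart from those of Ccr9.

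Accessibility did not follow acetylation at Ccr9. Only 1 ATAC-seq interval was listed, of 234 and 336 bp, 6049 bp upstream of the start in replicate 1 and 6010 bp in replicate 2. It touched H3K27ac in both replicates and neither H3K4me3 nor H3K9ac. The covered share of 0.646 and 0.927% was above that of only 53.3 and 56.5% of the protein-coding genes. H3K36me2 was patchy, with intervals upstream, in the distal gene body and beyond the higher-coordinate end, where those from 123792201 in both replicates lay within the neighbouring gene Fyco1 (123789500 to 123851899). Of its covered base pairs, 25.8% were common to both replicates.

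S1pr1, the receptor of sphingosine-1-phosphate, lies on chromosome 3 (115710433 to 115715055). Its window of 24.6 kb held no interval of H3K4me3, H3K9ac, H3K27ac, ATAC-seq, H3K36me2 or H3K27me3 in either replicate. The same was true of 3310 protein-coding genes, or 15.3%, S1pr1 included. The nearest element lay 20.5 kb from the lower-coordinate end, where H3K27ac was called from 115689372 to 115689897 in replicate 1 and from 115689376 to 115689893 in replicate 2. H3K9ac and ATAC-seq were called at that element in both replicates, and H3K4me3 in replicate 2 only. On the other side, the nearest H3K27ac interval was 100 and 99.9 kb away. The nearest H3K27me3 interval lay at 55.7 and 51.3 kb.

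**Figure D2:**
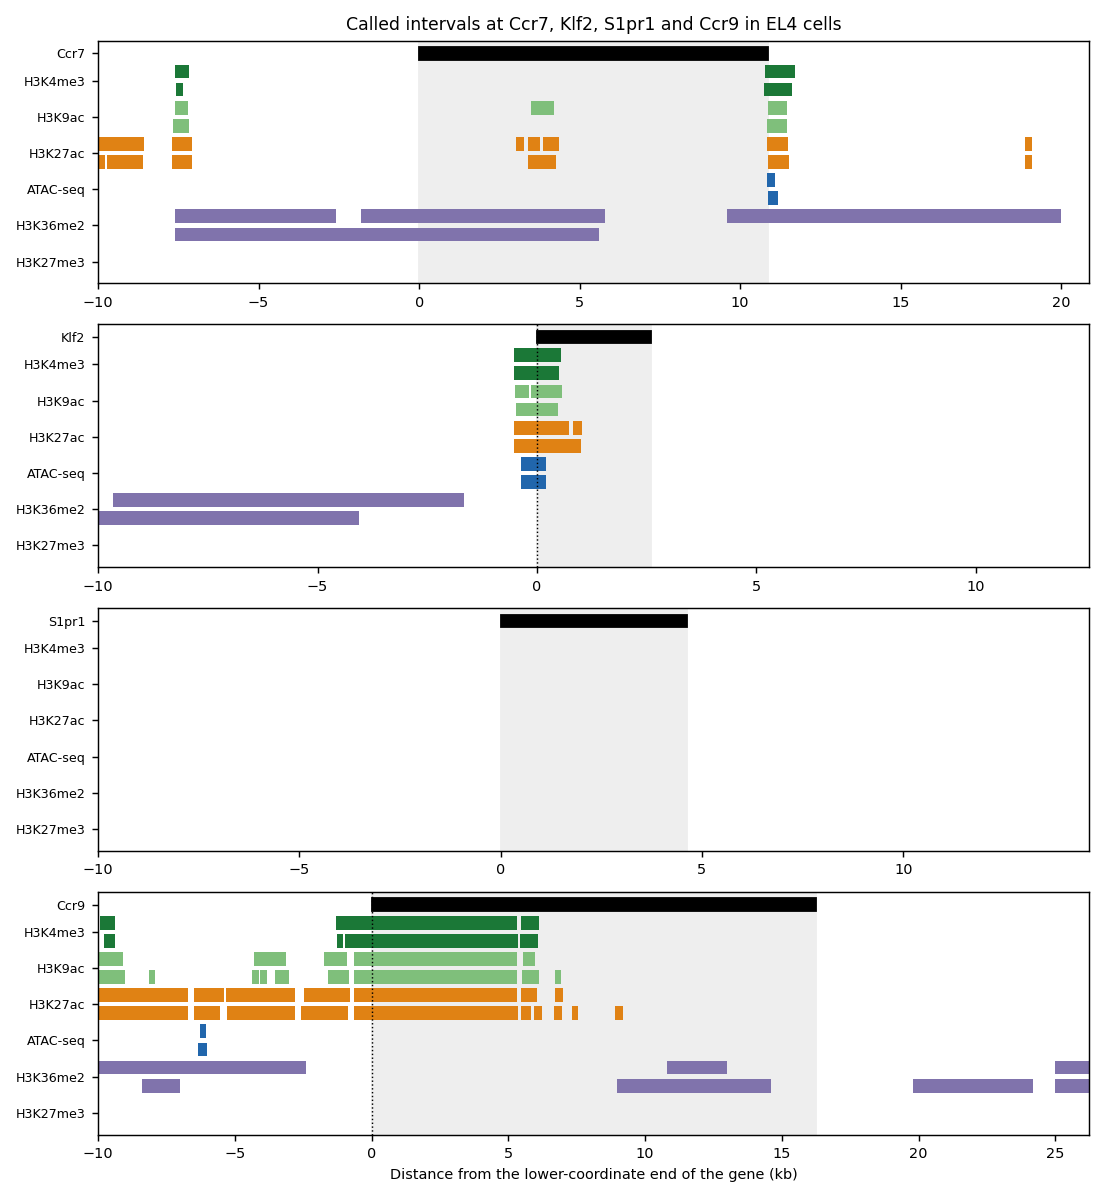
Called intervals at Ccr7, Klf2, S1pr1 and Ccr9, drawn as for the pan-T genes (x axis, distance from the lower-coordinate end in kb; 2 rows per assay, replicate 1 above replicate 2; black bar and grey band, gene span; dotted line, annotated start). Short clusters of the active marks lie at one end of Ccr7 and of Klf2, and wider H3K27ac (orange) reaches the lower edge of the Ccr7 window. S1pr1 is empty in all rows, and at Ccr9 the active marks extend from the start both ways while the single ATAC-seq interval (blue) lies upstream.

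The share of the window under called intervals was then set out for all members, as the mean of 2 replicates with its SD. For H3K36me2 the order was Thy1 (98.0% ± 2.81), Cd5 (85.8% ± 17.3), Cd6 (84.4% ± 4.42), Cd44 (60.3% ± 6.01), Ccr7 (58.6% ± 22.4), Cd2 (50.7% ± 8.15), Ccr9 (32.7% ± 3.14), Klf2 (30.8% ± 6.45) and S1pr1 at 0. The replicate values of neighbours in this order overlapped, except between Cd6 and Cd44, between Cd2 and Ccr9 and between Klf2 and S1pr1. By replicate, the pan-T genes had a median share of 89.6 and 80.5% and the homing genes of 32.9 and 30.6%, against 9.79 and 9.59% over all protein-coding genes. In both replicates Cd5 and Cd6, neighbours on chromosome 19, held the middle pan-T values and thus set the median of that class. The difference between class medians was 53.3 points ± 4.80 (SD, n = 2). Both classes overlapped in replicate 1, where Ccr7 (74.5%) lay above Cd2 (56.5%), and did not overlap in replicate 2, where Cd2 (44.9%) was the lowest pan-T gene and Ccr7 (42.7%) the highest homing gene.

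For the active marks, the spread within each class was larger than the distance between classes. H3K4me3 covered 24.0% ± 0.724 of the Thy1 window and 21.4% ± 0.377 of that of Ccr9, followed by Cd5 (13.7% ± 0.335), Cd2 (5.76% ± 0.26), Cd44 (4.73% ± 0.0154), Klf2 (4.67% ± 0.191) and Ccr7 (3.92% ± 0.671), with Cd6 and S1pr1 at 0. The class medians were 9.72 and 9.78% for the pan-T genes and 4.60 and 3.99% for the homing genes, where all protein-coding genes had 1.82 and 1.79%. The difference of 5.46 points ± 0.468 (SD, n = 2) came to 0.632 points without flanks and 1.47 points with Cd44 among the pan-T genes. H3K27ac was highest at Ccr9 (43.3% ± 1.07), Thy1 (32.1% ± 0.718) and Cd5 (22.2% ± 1.33). The lowest of the members were Klf2 (6.67% ± 0.163), Cd44 (5.18% ± 0.218) and Cd6 (4.66% ± 0.207), with S1pr1 at 0. All but S1pr1 lay above the medians over all protein-coding genes, 1.55 and 1.57%. The pan-T medians exceeded the homing medians by 8.42 points ± 0.334 for H3K27ac and by 4.03 points ± 0.519 for H3K9ac (SD, n = 2), but over the gene span without flanks the differences took the opposite sign (-10.5 and -3.4 points), and for H3K9ac also when Cd44 was counted with the pan-T genes (-0.8 points). Each class thus held 1 gene with very wide active marks (Thy1, Ccr9) and 1 gene without H3K4me3 (Cd6, S1pr1). S1pr1 also lacked both acetylations. At Cd6 the H3K27ac share ranked above 69.8 and 70.9% of protein-coding genes, and the H3K9ac share above 45.9 and 45.6%.

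In ATAC-seq the covered shares were small throughout, with Thy1 (2.74% ± 0.244), Klf2 (2.53% ± 0.0282) and Cd5 (2.38% ± 1.7) the highest. The class medians were 1.27 and 2.25% for the pan-T genes and 0.711 and 0.978% for the homing genes, a difference of 0.918 points ± 0.502 (SD, n = 2), and the medians over all protein-coding genes were 0.469 and 0.576%. With intervals of at least 500 bp alone the difference was 0.

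**Figure D3:**
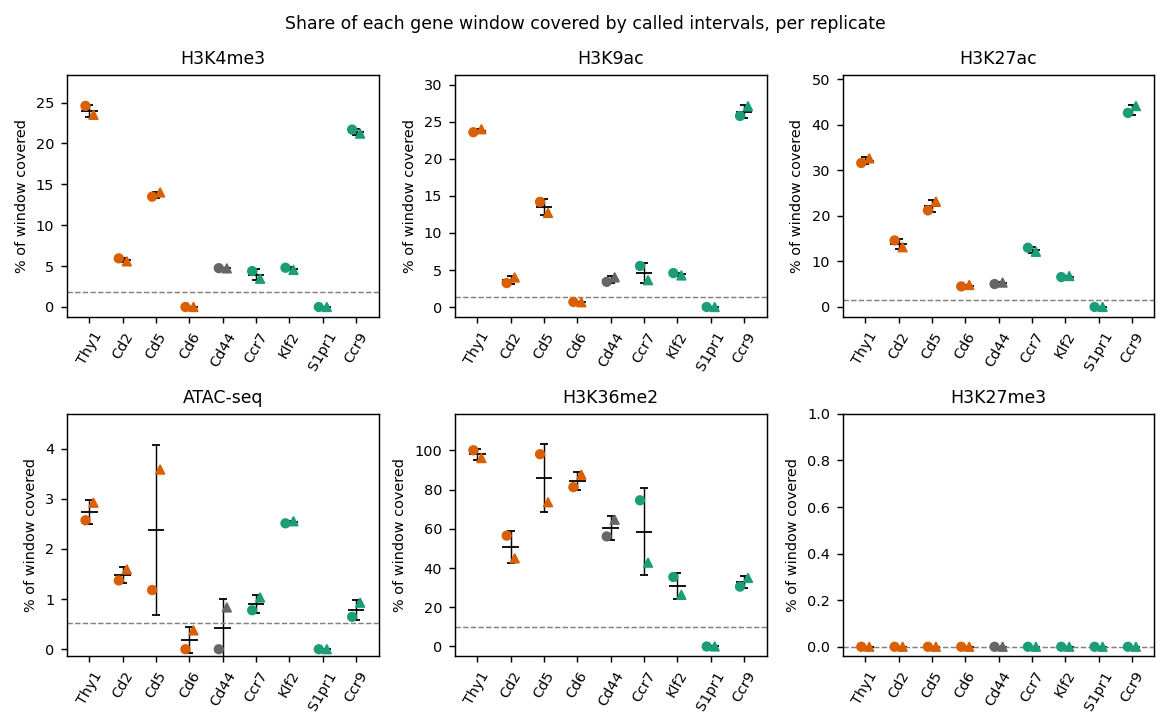
Share of each gene window covered by called intervals, in percent (y axis, own scale per assay), for the 9 members (x axis). Circles are replicate 1 and triangles replicate 2, the bar and whiskers the mean and SD (n = 2), orange the pan-T genes, grey Cd44, green the homing genes, and the dashed line the median over all protein-coding genes. Thy1, Cd5 and Cd6 lead in H3K36me2, while Cd2 lies below Cd44 and Ccr7 by its mean, Thy1 and Ccr9 stand out in H3K4me3, H3K9ac and H3K27ac, and H3K27me3 is 0 at every member.

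Counted by presence in both replicates, 7 of 9 members had H3K4me3 in the window (57.7% of protein-coding genes), all but Cd6 and S1pr1. H3K9ac was present at 8 members (56.3% of protein-coding genes), as were H3K27ac (57.6%) and H3K36me2 (53.8%), with S1pr1 missing each time. ATAC-seq was present in both replicates at 6 members, against 53.7%, the others being S1pr1 and the Cd6 and Cd44 loci with an interval in replicate 2 alone. H3K27me3 was present at 0 members, where 24.3% of protein-coding genes had it. By class, these counts were nearly equal. For H3K4me3 and ATAC-seq 3 of 4 genes of either class were marked, and for H3K9ac, H3K27ac and H3K36me2 all 4 pan-T genes and 3 of 4 homing genes.

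Closer to the genes, within 2 kb of either end, the classes parted in H3K36me2. All 4 pan-T genes had it there in both replicates, against 1 of 4 homing genes (Ccr7) and 38.4% of protein-coding genes. Klf2 had it at the gene end in replicate 1 alone and Ccr9 in replicate 2 alone, so that 2 homing genes were counted in each single replicate. For the other assays the counts at the gene ends were 3 of 4 genes in either class for H3K4me3 (46.3% of protein-coding genes), 4 and 3 for H3K9ac (45.5%) and H3K27ac (46.0%), 3 and 2 for ATAC-seq (41.3%), and 0 and 0 for H3K27me3 (12.5%). Ccr9 was the homing gene that had ATAC-seq in its window but not at its ends.

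Around the 4 annotated starts, the same distance gave H3K4me3, H3K9ac and H3K27ac at Cd5, Cd44, Klf2 and Ccr9 alike (46.6, 46.1 and 46.2% of 17274 protein-coding genes with a start). ATAC-seq was found in both replicates at Cd5 and Klf2 (42.1%), H3K36me2 at Cd5 and Cd44 (25.1%), and H3K27me3 at 0 starts (9.09%). In both replicates, the start of Cd5 had both and that of Ccr9 neither. Klf2 had H3K36me2 within this distance of its start in replicate 1 only, and Cd44 had ATAC-seq in replicate 2 only.

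**Figure D4:**
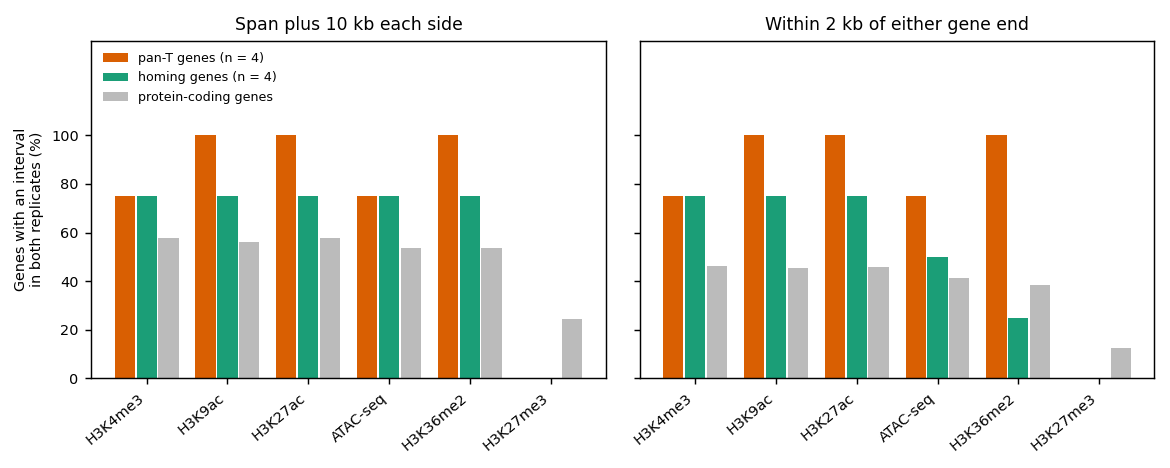
Percent of genes with an interval in both replicates (y axis) for each assay (x axis), in the span plus 10 kb each side (left) and within 2 kb of either gene end (right). Orange bars are the 4 pan-T genes, green bars the 4 homing genes and grey bars all protein-coding genes. The classes are alike in the windows, and at the gene ends H3K36me2 marks 4 of 4 pan-T genes and 1 of 4 homing genes, with 38.4% of protein-coding genes between them.

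The lists of H3K36me2 and of the active marks overlapped at some members and lay apart at others. Lists of the same replicate number were set against each other, as for the marks touched by ATAC-seq intervals. Replicate numbers of different assays share no stated batch, so this pairing is arbitrary. In replicate 1, 100% of the H3K4me3 base pairs of Thy1, Cd5 and Ccr7 lay under H3K36me2, then 76.6% at Cd2, 33.7% at Cd44, 7.13% at Ccr9 and 0% at Klf2. In replicate 2 the shares were 83.1% at Thy1, 40.6% at Cd5, 20.1% at Ccr7, 8.96% at Cd44 and 0% at Cd2, Klf2 and Ccr9. Thy1 and Cd5 were above the share of the whole library (24.9 and 21.0%) in both replicates, and Klf2 and Ccr9 were below it in both. Cd2, Ccr7 and Cd44 lay above it in replicate 1 and below it in replicate 2. These shares depend on how much of a window H3K36me2 covered, which was 100 and 96.0% at Thy1 and 98.0 and 73.5% at Cd5. For H3K27ac, Ccr9 was above the library share in replicate 1 (45.2 against 37.8%) and below it in replicate 2 (10.1 against 34.8%).

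Related genes were counted from lists that were chosen with earlier results of these data known. Of 20 other homing and trafficking genes, 13 had H3K4me3 in the window in both replicates (57.7% of protein-coding genes), 13 H3K27ac (57.6%), 8 ATAC-seq (53.7%), 15 H3K36me2 (53.8%) and 4 H3K27me3 (24.3%). The counts of H3K4me3, H3K27ac and H3K27me3 were near these shares, that of H3K36me2 was above and that of ATAC-seq was below. At Cxcr4, the receptor for CXCL12, H3K4me3 covered 24.6 and 24.0% of the window, about as much as at Thy1. The sphingosine-1-phosphate receptor gene S1pr4 had 23.8 and 22.9% H3K4me3 and 82.4 and 88.4% H3K36me2, where its relative S1pr1 had none. The 4 genes with H3K27me3 in both replicates had no H3K4me3, H3K27ac or H3K36me2. They were the integrin genes Itgb1 (73.3 and 78.6% of the window) and Itga4 (12.1 and 17.2%) and the chemokine receptor genes Ccr6 (48.5 and 49.9%) and Ccr8 (20.5 and 15.2%). Cxcr3, like S1pr1, had no interval of any list, but it lies on chromosome X, from which the methods say that reads were discarded, although the lists hold intervals on X.

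Of 15 other lymphocyte surface genes, 14 had H3K4me3, H3K9ac, H3K27ac and H3K36me2 in both replicates, 10 had ATAC-seq and 0 had H3K27me3. The shares of protein-coding genes were 57.7, 56.3, 57.6, 53.8, 53.7 and 24.3% in the same order. Cd7 was the exception, with H3K27me3 over 43.1% of its window in replicate 1 and no interval of another list. The T cell receptor complex genes Cd3d (33.4 and 32.3% H3K4me3) and Cd3g (32.7 and 31.8%) had a larger H3K4me3 share than any of the 9 members. Median H3K36me2 shares of this list were 49.1 and 53.3%, between those of the homing and the pan-T genes in both replicates. The 20 other homing and trafficking genes had 40.2 and 39.0%, so that both wider lists lay closer together than both classes of members.

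The genes with the most similar pattern were found by the distance in percentage points over the 12 covered shares, among protein-coding genes. The shares were not scaled, so H3K36me2, the largest at most members, weighed most and small shares counted little. A near gene can thus differ in the presence of a mark: Ascc1, the nearest to Cd6, had 1.29 and 1.27% H3K4me3, where Cd6 had none. Among members with an interval, Cd44 had the closest partner, Ash2l at 1.77 points, then Klf2 with Upf3a at 2.39, Cd6 with Ascc1 at 3.57 and Ccr7 with Gng4 at 4.10. Thy1 was nearest to Arhgap45 (7.33 points) and Ptprcap (8.66), Cd2 to Fgr (7.30) and Cd5 to Slc29a1 (7.02). Ccr9 had no close match, its nearest gene being Gm42048 at 16.3 points with 5.47 and 6.77% of its window under ATAC-seq, against 0.646 and 0.927% at Ccr9. S1pr1 was identical to 3309 other genes, all without an interval.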

How the data were processed

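The measurements were ChIP-seq of H3K4me3, H3K9ac, H3K27ac, H3K36me2 and H3K27me3 and ATAC-seq in EL4 cells, with 2 replicates each, grouped by assay from the labels. Per the labels, the authors used STAR 2.5, Picard and MACS2 on GRCm38. According to the methods, narrow lists and ATAC-seq were called with macs2 and the broad lists of H3K36me2 and H3K27me3 with Epic, against input for ChIP-seq. The deposited lists give chromosome, start and end in bp, without counts, scores or p-values, so depth is unknown and no counting interval was computed. The broad lists lie on bins of 200 bp. Neither the input nor the RNA-seq libraries were used here.

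Gene spans came from the RefSeq table of GRCm38.p6, extended by 10 kb. An overlap of 1 bp counted, and a gene was called where both replicates had an interval. The planned counts at gene starts could be made for 4 of 9 members, and counts within 2 kb of either gene end were added. The share of each window covered was computed per replicate. Differences in percentage points are pan-T minus homing class medians. Alternatives were flanks of 0, 5 and 25 kb, 1 kb around ends, 200 bp of overlap, intervals of at least 500 bp, either replicate, each replicate left out and Cd44 in either class. The genes named are the members, those of the lists, and the most similar genes by distance. The members and lists were chosen with earlier results of these data known. Overlaps were checked with bedtools 2.31.1 in 108 windows, where 0 differed, and on simulated intervals. Python 3.11.15, numpy 2.4.6, pandas 2.3.3 and matplotlib 3.10.9 were used.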

Additional observations from a re-analysis of the deposited data

How the results depend on the processing

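Of 204 counts recomputed under an alternative, 196 stayed within 1.5 times the reported count and 8 moved. As the classes are small, a change from 3 genes to 2 still lay within 1.5 times, so this tally cannot show that the counts are stable. Over the gene span without flanks, for example, ATAC-seq was counted at 2 pan-T and 2 homing genes, where 3 and 3 were reported. With ATAC-seq intervals of at least 500 bp, 0 pan-T and 1 homing gene (Klf2) remained in both replicates, where 3 and 3 were reported. With 25 kb flanks, 1 pan-T gene (Cd2) reached H3K27me3. The same flanks brought H3K4me3 to 4 pan-T genes, Cd6 included, where 3 were reported. They also brought H3K9ac, H3K27ac and ATAC-seq to 4 homing genes, S1pr1 included, where 3 were reported for each. At the gene ends, H3K36me2 was counted at 3 homing genes when either replicate sufficed and at 2 with replicate 1 or replicate 2 left out (2 to 2), where 1 was reported. At the starts, the homing genes with H3K36me2 numbered 1 when either replicate sufficed and 0 to 1 with a replicate left out, where 0 was reported. The difference in median H3K36me2 share between the classes, reported as 53.3 points, kept its sign under the alternatives run: 76.3 points without flank, 68.6 with 5 kb, 43.0 with 25 kb, 45.6 with Cd44 among the pan-T genes, and 49.9 to 56.7 with a replicate left out. Over all annotated genes in place of protein-coding genes, the share of genes marked was 37.9% for H3K4me3, 36.5% for H3K9ac, 38.1% for H3K27ac, 34.3% for ATAC-seq, 38.4% for H3K36me2 and 23.1% for H3K27me3. The cause of these shifts was not tested beyond what each alternative changes by construction.

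No paired analysis was possible because the values come from no test and the lists of a replicate number share no stated batch. With 2 technical replicates of 1 cell line the spread shown here is technical. Peak heights and depth are not in the lists, so a weak and a strong peak count alike, a missing interval does not show that a mark is absent, and shares of a window depend on gene length and on neighbouring genes.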
